A study of Mus musculus with 4 samples.

Results

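The genes of major histocompatibility complex (MHC) antigen presentation were followed on 4 mouse Affymetrix arrays of mammary tissue. The members were all probe sets whose single gene symbol begins with H2-, the prefix of the mouse MHC, or is B2m, Tap1, Tap2, Tapbp, Cd74 or Ciita. This gave 50 of the 22690 probe sets, for 27 of the 12394 named genes. By symbol, 34 probe sets of 17 genes belong to class I and its peptide supply, 15 probe sets of 9 genes to class II, and 1 probe set, H2-Ke6, lies in the MHC but encodes a metabolic enzyme. The 4 arrays, 1 per group, held RNA of mammary tumors of Sca-1 KO mice, mammary tumors of wild-type (WT) mice, mammary glands of Sca-1 KO mice and mammary glands of WT mice. All mice were female, nulliparous, on a C57BL/6 background and fed standard chow, and the WT mice were littermates of the KO mice. The tumors were induced by 15 mg of MP, a depot progestin injected under the skin, and then 4 weekly doses of 1 mg of the carcinogen DMBA by gavage. The glands were taken at 6 weeks of age, and their own group labels name no carcinogen. The age at which tumors were taken is not given in the labels used here. Sca-1, the protein missing in the KO mice, sits on the cell surface through a lipid anchor and is widely used to mark stem and progenitor cells.

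Class I molecules are carried by almost all nucleated cells. A heavy chain pairs with beta-2 microglobulin (B2m) and is loaded with peptides from the cytosol, which the Tap1 and Tap2 transporter pumps into the endoplasmic reticulum and tapasin (Tapbp) helps to fit. Class II molecules are pairs of an alpha and a beta chain, found mainly on B cells, dendritic cells and macrophages, and they present peptides from endocytosed material. Cd74, the invariant chain, escorts them, H2-DM exchanges their peptides, H2-O restrains H2-DM, and the coactivator Ciita is needed for their transcription. C57BL/6 mice have the H2b haplotype, which makes no H2-Ea chain.

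Each array was hybridised with a single pool of RNA from 5 mice. There were therefore no replicates and no test could be made, and each difference below is between 2 arrays, with the spread between mice or pools unknown. Signals are the authors' linear intensities. Differences are on the log2(signal + 27.3) scale, with the offset set to the 25th percentile over the 4 arrays, and they understate changes of dim genes. A probe set was counted as higher or lower at 2-fold or more. Counts take the 10442 probe sets with 1 gene symbol whose mean log2 value over the 4 arrays reached the median of all values, a signal of 168. Of the 50 members 28 did, 18 of class I, 9 of class II and H2-Ke6.

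The arrays had median signals of 153 in the KO tumor, 151 in the WT tumor, 199 in the KO gland and 167 in the WT gland. For beta-actin the 3' control signal was 1.29 and 1.23 times the 5' one in the KO and WT tumor and 1.61 and 2.35 times in the KO and WT gland. No probe set was named for Sca-1 in the annotation used, so the KO label was not checked by gene name. Of 15 markers of mammary epithelium 13 were above the floor, Esr1 and Pgr being at background on all 4 arrays, and the list had summed signals of 68066 and 60237 in the KO and WT tumor and 26392 and 30542 in the KO and WT gland. The glands also held adipocyte markers, at a sum of 39638 in the KO and 41853 in the WT gland against 3221 in the KO and 4236 in the WT tumor. Skeletal muscle markers summed to 57220 and 60020 in the KO and WT gland and to 875 and 436 in the KO and WT tumor. As a gauge of measurement noise, the brightest 2 probe sets of the same gene disagreed by a median log2 value of 0.22 for KO against WT gland, 0.17 for KO against WT tumor, 0.47 for WT tumor against WT gland and 0.43 for KO tumor against KO gland, over 2262 genes.

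The promoters of the members carry short sequence elements by which these genes are known to be regulated together. The Y box, bound by the factor NF-Y, and the X box, bound by the RFX complex, are the docking site of Ciita in class II genes and of Nlrc5 in class I genes. The interferon-stimulated response element is bound by interferon regulatory factors. The 200 bases before the RefSeq start (build GRCm38.p6) were read for the 17 of 27 member genes in the table of promoters. The letters searched on both strands were CTGATTGG for the Y box, AGCAAC for the core of the X box and TTTCANTT for the interferon element, all chosen after these promoters had been read. They are in capitals in the promoters of H2-Aa and H2-Eb1, class II chains brighter in tumor than in gland, of H2-Oa, a class II gene brighter in gland, and of the class I genes H2-D1, H2-Q10 and B2m.
H2-Aa, chr17:34287824-34288023, minus strand: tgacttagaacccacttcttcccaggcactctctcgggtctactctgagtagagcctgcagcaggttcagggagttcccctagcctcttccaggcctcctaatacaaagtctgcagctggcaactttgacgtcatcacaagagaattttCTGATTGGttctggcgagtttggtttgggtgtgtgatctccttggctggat
H2-Eb1, chr17:34305667-34305866, plus strand: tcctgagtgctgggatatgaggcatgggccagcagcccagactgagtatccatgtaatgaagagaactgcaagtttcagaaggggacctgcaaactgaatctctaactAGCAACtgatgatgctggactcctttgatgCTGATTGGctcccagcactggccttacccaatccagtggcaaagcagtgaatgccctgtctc
H2-Oa, chr17:34092179-34092378, plus strand: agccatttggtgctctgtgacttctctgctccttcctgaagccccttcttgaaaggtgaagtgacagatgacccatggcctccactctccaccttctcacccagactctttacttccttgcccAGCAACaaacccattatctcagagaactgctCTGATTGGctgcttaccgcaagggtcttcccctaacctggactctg
H2-D1, chr17:35262894-35263093, plus strand: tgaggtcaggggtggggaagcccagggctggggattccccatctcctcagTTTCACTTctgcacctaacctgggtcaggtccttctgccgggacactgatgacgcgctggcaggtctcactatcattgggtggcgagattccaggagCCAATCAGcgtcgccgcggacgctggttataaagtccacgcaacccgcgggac
H2-Q10, chr17:35469889-35470088, plus strand: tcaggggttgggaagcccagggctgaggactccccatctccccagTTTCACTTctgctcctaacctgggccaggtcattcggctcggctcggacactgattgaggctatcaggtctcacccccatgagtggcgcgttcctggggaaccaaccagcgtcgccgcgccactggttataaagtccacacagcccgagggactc
B2m, chr2:122147487-122147686, plus strand: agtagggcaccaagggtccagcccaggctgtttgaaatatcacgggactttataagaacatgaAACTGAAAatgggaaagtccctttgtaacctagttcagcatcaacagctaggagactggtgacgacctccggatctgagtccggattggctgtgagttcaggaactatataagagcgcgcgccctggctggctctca
The Y box letters occurred in 6 of the 17 genes and in 3.54% of the 32851 promoter stretches of the table. The X box letters occurred in 2 of the 17, H2-Eb1 and H2-Oa, and in 10.2% of all stretches. The interferon letters occurred in 7 of 11 class I genes and in 0 of 5 class II genes, against 4.42% of all stretches. ATTGG, the core contained in the Y box letters, occurred in 14 of the 17 and in 29.3% of all stretches. It is not in the H2-Q10 stretch, although H2-Q10 and H2-D1 share the interferon letters. These matches are descriptions of letters and not of binding.

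H2-Aa, H2-Ab1 and H2-Eb1, chains of the class II molecules I-A and I-E, were highest in the WT tumor. Of the 9 class II probe sets above the floor, 7 had their highest signal in the WT tumor and 2, Cd74 and H2-Oa, in the KO gland. The share of all probe sets highest on each array was not counted. In 7 of 9 both tumor arrays lay above both gland arrays, an order seen in 39.0% of all probe sets counted, and in 1, H2-Oa, both lay below, also 39.0% of all.

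H2-Aa encodes the alpha chain of I-A, the class II molecule of C57BL/6 mice. Its probe set 1452431_s_at had signals of 4623 in the KO tumor, 6919 in the WT tumor, 2831 in the KO gland and 2101 in the WT gland. Its other probe set, 1435290_x_at, had 6886 in the KO tumor, 8794 in the WT tumor, 5446 in the KO gland and 5496 in the WT gland. Both placed the tumors above the glands and the WT tumor highest, and they disagreed in the glands, where the second differed by -0.01 between KO and WT and the first by 0.43.

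H2-Ab1, the beta chain of I-A, had 3 probe sets that ran alike. The brightest, 1450648_s_at, had 5088 in the KO tumor, 6886 in the WT tumor, 2311 in the KO gland and 1852 in the WT gland. The second, 1451721_a_at, had 3702 in the KO tumor, 5006 in the WT tumor, 2019 in the KO gland and 1402 in the WT gland. The third, 1425477_x_at, had 2695 in the KO tumor, 3909 in the WT tumor, 1682 in the KO gland and 986 in the WT gland. In each of the 3 the order from high to low was WT tumor, KO tumor, KO gland, WT gland.

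H2-Eb1, the beta chain of I-E, whose alpha chain partner H2-Ea is not made in this haplotype, had the same order. Its signals were 5237 in the KO tumor, 6555 in the WT tumor, 4232 in the KO gland and 3229 in the WT gland. H2-Ea itself was at background on its 3 probe sets, with signals between 0 and 26.7 over the 4 arrays.

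H2-DMa, the alpha chain of the peptide exchange factor H2-DM, followed the presenting chains. Its signals were 763 in the KO tumor, 1186 in the WT tumor, 639 in the KO gland and 486 in the WT gland. Cd74, the invariant chain, did not separate tumor from gland. It had 3881 in the KO tumor, 5705 in the WT tumor, 6346 in the KO gland and 5236 in the WT gland, so the KO tumor was the lowest of the 4.

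H2-Oa, the alpha chain of H2-O, which is known to be restricted mainly to B cells and thymic epithelium, had another order. Its signals were 108 in the KO tumor, 127 in the WT tumor, 404 in the KO gland and 172 in the WT gland, so both tumors were below the floor. H2-DMb2, a beta chain of H2-DM, was just below the floor over all arrays with the same order, at 71.6 in the KO tumor, 113 in the WT tumor, 421 in the KO gland and 172 in the WT gland. Ciita was below the floor on each array by both of its probe sets, with signals between 40.3 and 150. Its probe sets differed in order, with 1421210_at highest in the KO gland and 1421211_a_at in the WT tumor.

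**Figure D1:**
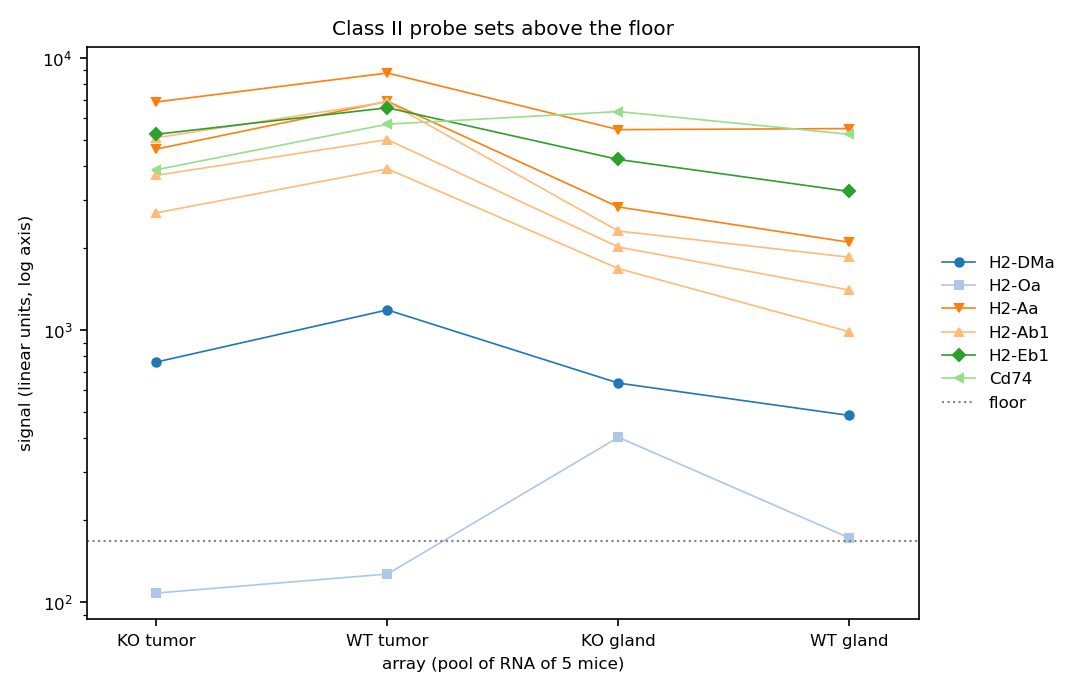
Signal (vertical, log axis) of the 9 class II probe sets above the floor on the KO tumor, WT tumor, KO gland and WT gland arrays, 1 line per probe set, with the floor at 168 dotted. The WT tumor is the highest array for 7 of 9, and H2-Oa is highest in the KO gland at 404.

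The comparison of genotypes in the tumors asks how tumors without Sca-1 differed from WT tumors. Every class II probe set above the floor lay lower in the KO tumor, each by less than 2-fold. Among those above the floor the largest difference was -0.62 for H2-DMa and the smallest -0.19 for H2-Oa, with a median of -0.43 over the 9. The median of all 10442 probe sets was 0.01, and 51.8% of them were positive against 0 of 9 here. H2-Aa differed by -0.58 and -0.35, H2-Ab1 by -0.53, -0.43 and -0.43, Cd74 by -0.55 and H2-Eb1 by -0.32. None of the 9 was past 2-fold, while 1.49% of all probe sets were higher and 1.40% were lower by that rule. Over all 15 class II probe sets, dim ones included, 15 were negative, with a median of -0.42. The dim ones, of H2-Ea, Ciita and H2-DMb2, were under the floor in both tumors, and H2-Ea was at background. Their signs therefore add little.

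The same question was put to the glands, where no tumor was present, and class II probe sets mostly lay higher in the KO gland. Of the 9 above the floor 8 were positive, from 0.28 for Cd74 to 1.11 for H2-Oa, and 1, the H2-Aa probe set 1435290_x_at, was at -0.01. The median was 0.39, against 0.02 for all probe sets, of which 53.1% were positive. Only H2-Oa was past 2-fold (2.16-fold higher, 1.11 on the log2 scale). It reached the floor through its gland signals, mostly that of the KO gland at 404, so the filter favoured this call. It was within 2-fold at 0.75 with the larger offset, 0.89 after centring, 0.92 under cyclic loess and 0.999 under quantile normalization. Of all probe sets 1.02% were higher by that rule and 0.105% lower. The 3 probe sets of H2-Ab1 differed by 0.32, 0.52 and 0.75, H2-Eb1 by 0.39 and H2-DMa by 0.38. Below the floor, the H2-DMb2 probe set was at 1.17 and the Ciita probe sets were at 0.80 and 0.34. When arrays were centred on a common median, which moved the median of all probe sets to -0.21, the class II median was 0.16. The WT gland also carried some secretory markers of salivary gland that were at background in the KO gland. Smr3a had 1.4 in the KO gland and 4808 in the WT gland, Bpifa2 27 in the KO gland and 7706 in the WT gland, and Car6 9.2 in the KO gland and 2774 in the WT gland. Of the other listed markers, Dcpp3 had 71.2 in the KO gland and 537 in the WT gland. Amy1 had 3176.5 in the KO gland and 6071.5 in the WT gland, and Aqp5 1678 in the KO gland and 1973 in the WT gland. Prol1 and Mucl2 were at background in both glands. The 2 gland pools thus differed in some salivary markers, whose part in the class II differences was not tested.

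The genotype difference thus had opposite signs in tumor and gland for 8 of the 9, and the difference in tumor minus that in gland was negative for 9 of 9, with a median of -0.95. It was past 2-fold for 3. These were H2-Oa at -1.30, under the floor in both tumors, H2-Ab1 by 1425477_x_at at -1.29 and H2-Aa by 1452431_s_at at -1.01. By that rule 4.06% of all probe sets were lower and 1.75% higher. This contrast of contrasts was not tested, as each of its terms is 1 array.

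**Figure D2:**
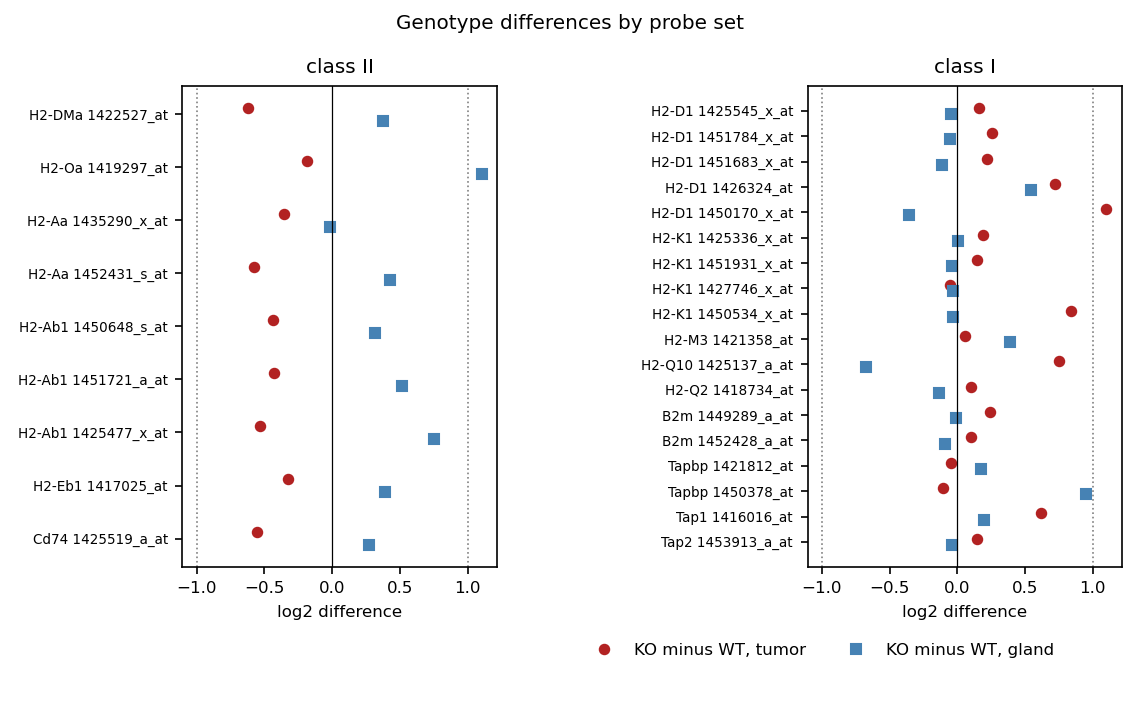
Log2 difference of KO minus WT (horizontal) for each class II (left) and class I (right) probe set above the floor, in tumors (red circles) and glands (blue squares), with dotted lines at 2-fold. All 9 class II circles lie left of 0, while 8 of 9 class II squares lie right of it, and 15 of 18 class I circles lie right of 0.

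Of the 4 leukocyte marker lists, the macrophage list had medians of the same sign as class II in both tissues. The B cell, dendritic cell and T and NK cell lists had positive medians in both. In the tumors the dendritic list was split, with 2 of 4 members above the floor positive. Of 14 macrophage markers above the floor, 14 were positive in the KO gland against the WT gland (median 0.35). In the KO tumor against the WT tumor 2 were positive (median -0.40). Of all probe sets 53.1% were positive in the gland and 51.8% in the tumor comparison. The summed signal of the 15 macrophage markers with a named probe set was 30319 in the KO tumor, 39228 in the WT tumor, 24607 in the KO gland and 17933 in the WT gland, an order equal to that of H2-Ab1. Csf1r, the receptor for the macrophage growth factor CSF1, had 3352 in the KO tumor, 5284 in the WT tumor, 3553 in the KO gland and 2890 in the WT gland.

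B cell markers, like H2-Oa and H2-DMb2, were highest in the KO gland. Their 12 named members summed to 1607 in the KO tumor, 1396 in the WT tumor, 8765 in the KO gland and 3536 in the WT gland. In the glands 3 of 5 above the floor were higher in KO, against 1.02% of all probe sets, with a list median of 1.24. The inhibitory receptor Cd22 and the immunoglobulin heavy chain Ighm were both 2.75-fold higher, and the B cell receptor component Cd79b 2.36-fold. Cd22 and Cd79b were under the floor in both tumors and entered the count through their gland signals. In the tumors none of the 5 was past 2-fold and 3 were positive. The median there was 0.15, opposite in sign to class II but within the noise gauge of 0.17 for that comparison. No value of any of these marker lists was at 0 on any array.

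Dendritic cell markers summed to 2626 in the KO tumor, 2903 in the WT tumor, 6293 in the KO gland and 5297 in the WT gland. Their medians were 0.34 for the glands and 0.18 for the tumors over 4 members above the floor. Of these 4, 3 were positive for the glands and 2 for the tumors. In the tumors the positive Clec10a, at 0.92, was under the floor in WT at 85, and Itgax was at -0.47. T and NK cell markers summed to 1671 in the KO tumor, 1412 in the WT tumor, 5592 in the KO gland and 3870 in the WT gland. Of their 4 members above the floor 4 were positive for the glands (median 0.43) and 4 for the tumors (median 0.29). The part of these cells in the class II differences was not tested, and in such bulk tissue fewer cells of a type and less RNA per cell cannot be told apart.

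**Figure D3:**
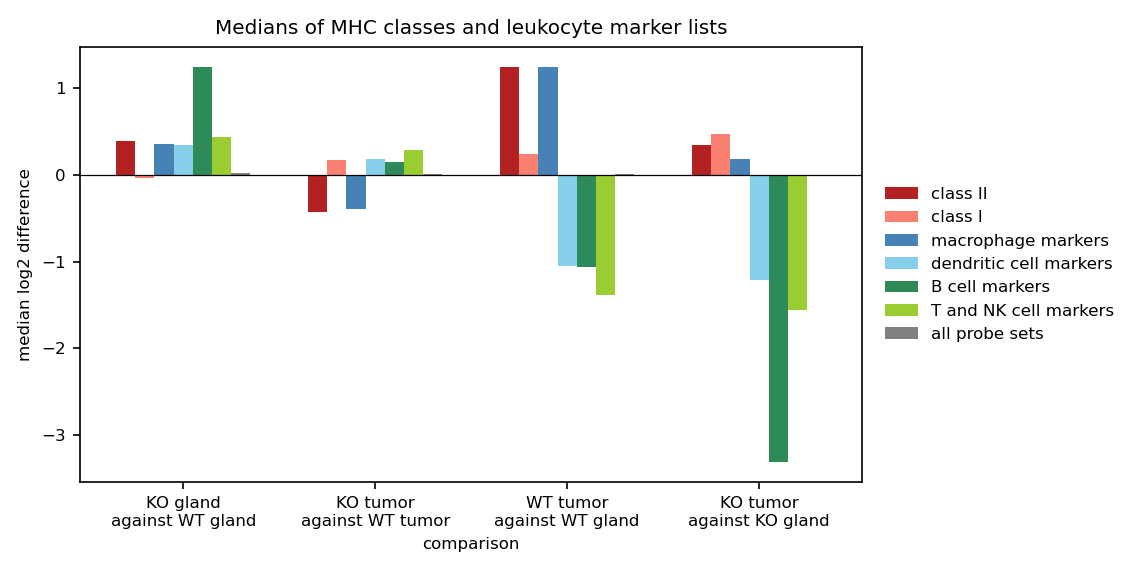
Median log2 difference (vertical) in each of the 4 comparisons for class II, class I, 4 leukocyte marker lists and all probe sets counted (grey). Class II and macrophage markers have medians of 0.39 and 0.35 in the glands and -0.43 and -0.40 in the tumors. For WT tumor against WT gland these medians are 1.24 and 1.23. B cell markers reach -3.31 for KO tumor against KO gland, where Cd79b, Cd22 and Ebf1 were under the floor in the tumor.

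Between tumor and gland the contrast of class II was larger in WT mice. In the WT tumor against the WT gland 6 of 9 class II probe sets were higher and none was lower, with a median of 1.24 against 0.00 for all probe sets, of which 12.8% were higher and 13.2% lower. The 3 probe sets of H2-Ab1 were 3.52-fold, 3.68-fold and 3.89-fold higher, H2-Aa was 3.26-fold higher by 1452431_s_at and 1.60-fold by 1435290_x_at, H2-DMa 2.36-fold and H2-Eb1 2.02-fold. Cd74 differed by 0.12 and H2-Oa by -0.37. Macrophage markers had 9 of 14 members higher and 2 lower in the same comparison, with a median of 1.23. The other leukocyte lists had negative medians there. B cells were at -1.07 with 3 of 5 lower, and T and NK cells at -1.38 with 4 of 4 lower. Dendritic cells were at -1.06 with 1 of 4 higher, Itgax at 3.45-fold, and 2 lower. The lower B cell markers, Cd79b, Cd22 and Ebf1, had 25.6, 124 and 40.2 in the WT tumor, under the floor. Also under it were Clec10a of the dendritic list at 85, and Cd3g at 145 and Nkg7 at 103 of the T and NK list. These entered the count through their gland signals, so their direction was set by the filter. Naaa, Cd3d and Thy1, also lower, were above the floor in the WT tumor at 204, 169 and 578. Of the macrophage markers, Cd14, a receptor for bacterial lipopolysaccharide, was 6.64-fold higher. The Fc receptor Fcgr1 was 4.09-fold higher and the calcium-binding protein Aif1 4.02-fold, while the scavenger receptor Cd163 was 5.78-fold lower. Fcgr1 was under the floor in the WT gland at 147, and Cd163 in the WT tumor at 116.

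In the KO tumor against the KO gland 1 of 9 class II probe sets was higher, H2-Ab1 by 1450648_s_at at 2.19-fold, and 1 was lower, H2-Oa at 3.18-fold with its tumor signal under the floor, with a median of 0.34. By that rule 11.5% of all probe sets were higher and 14.4% lower. The other H2-Ab1 probe sets differed by 0.87 and 0.67, H2-Aa by 0.70 and 0.34, H2-Eb1 by 0.31, H2-DMa by 0.25 and Cd74 by -0.71. H2-DMb2, below the floor, was at -2.18. Of 5 B cell markers 4 were lower in this comparison. Of these, Cd79b, Cd22 and Ebf1, a B cell transcription factor that adipocytes also express, were under the floor in both tumors and entered the count through their gland signals, so their direction was set by the filter. Cd79b had 54.9 in the KO tumor and 871 in the KO gland, Cd22 had 60.9 in the KO tumor and 846 in the KO gland, and Ebf1 had 36.7 in the KO tumor and 688 in the KO gland. Ighm, above the floor on each array, was 3.88-fold lower.

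Most class I probe sets above the floor had their highest signal in the KO tumor. Of these 18, 12 were highest in the KO tumor, 1 in the WT tumor, 2 in the KO gland and 3 in the WT gland. For all probe sets, shares by highest array were not counted. Both tumors lay above both glands in 11 of 18 and below in 3, against 39.0% each way in all probe sets. Many of these probe sets cannot separate the near-identical class I genes. Of the 50 members 27 carry the suffixes _x_at, _s_at or _a_at that mark probe sets matching several transcripts, and 16 carry _x_at. Among all named probe sets 30.8% carry any of the 3 suffixes. The several transcripts can be of a single gene, as both B2m probe sets carry _a_at. The H2-K1 and most H2-D1 probe sets above the floor carry _x_at, so their values are uncertain as to the gene.

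B2m, the light chain common to all class I molecules, is a single gene and its 2 probe sets ran alike. The first, 1449289_a_at, had 11695 in the KO tumor, 9912 in the WT tumor, 7647 in the KO gland and 7707 in the WT gland. The second, 1452428_a_at, had 9256 in the KO tumor, 8613 in the WT tumor, 7429 in the KO gland and 7907 in the WT gland. The KO tumor was highest by both, and the genotype differences were 0.24 and 0.10 in tumor and -0.01 and -0.09 in gland.

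H2-K1 and H2-D1 encode the classical heavy chains that present peptides to CD8 T cells. The brightest H2-K1 probe set, 1425336_x_at, had 9614 in the KO tumor, 8447 in the WT tumor, 6871 in the KO gland and 6854 in the WT gland. The brightest H2-D1 probe set, 1425545_x_at, had 9268 in the KO tumor, 8296 in the WT tumor, 6725 in the KO gland and 6959 in the WT gland. Both placed the tumors above the glands, and the genotype differences of H2-K1 and H2-D1 by these probe sets were 0.19 and 0.16 in tumor and 0.0036 and -0.049 in gland.

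Dimmer probe sets of the same genes went otherwise. For H2-K1, 1450534_x_at had 643 in the KO tumor, 346 in the WT tumor, 1323 in the KO gland and 1353 in the WT gland, so it was 3.69-fold lower in the WT tumor than in the WT gland. For H2-D1, 1450170_x_at had 434 in the KO tumor, 188 in the WT tumor, 260 in the KO gland and 340 in the WT gland. Also for H2-D1, 1426324_at had 1232 in the KO tumor, 736 in the WT tumor, 1674 in the KO gland and 1137 in the WT gland. Over the probe sets above the floor, the WT tumor against WT gland difference ran from -1.89 to 0.30 for H2-K1 (4 probe sets) and from -0.77 to 0.25 for H2-D1 (5 probe sets), so the direction for these genes depended on the probe set.

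**Figure D4:**
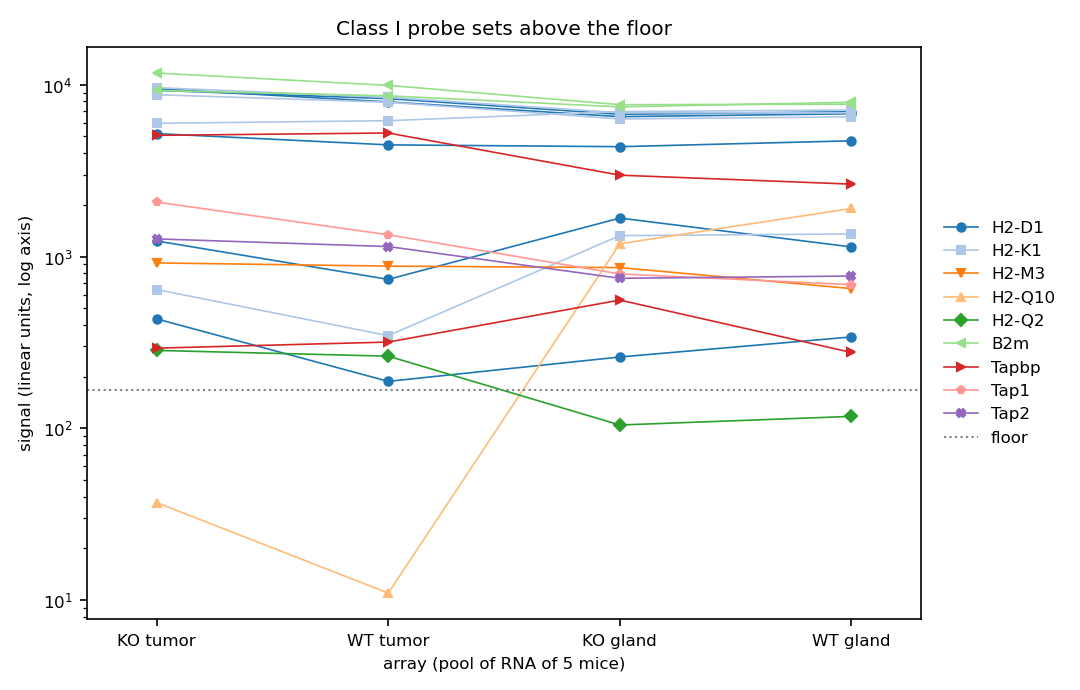
Signal (vertical, log axis) of the 18 class I probe sets above the floor on the KO tumor, WT tumor, KO gland and WT gland arrays, 1 line per probe set. Both B2m lines stay between 7429 and 11695, whereas H2-Q10 is at 37.0 and 11 in the KO and WT tumor and at 1186 and 1905 in the KO and WT gland.

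Tap1, a subunit of the peptide transporter and a known target of interferon, had 2074 in the KO tumor, 1339 in the WT tumor, 791 in the KO gland and 686 in the WT gland by its one probe set above the floor. It was 2.57-fold higher in the KO tumor than in the KO gland and differed by 0.94 between the WT tumor and the WT gland. Its 3 other probe sets were at background, between 0.1 and 22.5. Tap2, the other subunit, had 1267 in the KO tumor, 1143 in the WT tumor, 747 in the KO gland and 770 in the WT gland. Both subunits were thus higher in signal in the tumors than in the glands, with the KO tumor highest.

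Tapbp, the bridge between transporter and heavy chain, had 5072 in the KO tumor, 5235 in the WT tumor, 2975 in the KO gland and 2638 in the WT gland by its brighter probe set, 1421812_at. Its dimmer one, 1450378_at, had 293 in the KO tumor, 318 in the WT tumor, 558 in the KO gland and 276 in the WT gland, and so disagreed as to tumor against gland in KO mice, at -0.87 against 0.76 for the brighter one.

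Of the nonclassical heavy chains 3 were above the floor. H2-M3, which presents N-formylated peptides of bacteria and mitochondria, had 918 in the KO tumor, 879 in the WT tumor, 863 in the KO gland and 651 in the WT gland. H2-Q2 had 284 in the KO tumor, 263 in the WT tumor, 105 in the KO gland and 117 in the WT gland, and was 2.36-fold higher in the KO tumor than in the KO gland and 2.01-fold higher in the WT tumor than in the WT gland. H2-M3 was above the floor on each array, and H2-Q2 in the tumors alone, so that H2-Q2 entered the count through its tumor signals.

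H2-Q10, a class I protein that is secreted and best known from liver, showed the largest tumor to gland contrast of all members. Its signals were 37.0 in the KO tumor, 11 in the WT tumor, 1186 in the KO gland and 1905 in the WT gland. It was 18.9-fold lower in the KO tumor than in the KO gland and 50.4-fold lower in the WT tumor than in the WT gland. These sizes depend on the offset because the tumor signals are at background. H2-Q10 was above the floor in the glands alone and entered the count through them, so its direction was set by the filter. Adipocyte and skeletal muscle markers had the same direction between tumor and gland in WT mice, and salivary markers were mixed. The salivary sum was 3665 in the WT tumor, 23878 in the WT gland, 4339 in the KO tumor and 4981 in the KO gland. Of its members, Aqp5 went the other way, with 3512 in the WT tumor and 1973 in the WT gland. In the KO tumor against the KO gland 2 of 3 salivary markers above the floor were higher and 1 lower, against 11.5% and 14.4% of all probe sets. Whether H2-Q10 moved with 1 of these tissues was not tested.

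In the tumors of the 2 genotypes the class I median was 0.17, with 15 of 18 probe sets positive against 51.8% of all. This median was about the size of the noise gauge for that comparison. Mammary epithelial markers had a median of 0.19 there, with 12 of 13 positive, and their part in the class I difference was not tested. At 2-fold, 1.49% of all probe sets were higher and 1.40% lower. Of class I 1 was past 2-fold, the H2-D1 probe set 1450170_x_at at 2.14-fold higher in KO. After it came H2-K1 by 1450534_x_at at 0.84, H2-Q10 at 0.75 with both signals at background, H2-D1 by 1426324_at at 0.72 and Tap1 at 0.62. Class II had no positive probe set in the same comparison. In the glands 53.1% of all probe sets were positive, and 1.02% were past 2-fold higher and 0.105% lower. There the class I median was -0.04, with 6 of 18 positive and none past 2-fold. It turned to 0.02 under quantile normalization, to 0.09 under cyclic loess and to 0.30 without shared probe sets, so no direction is given for it. The largest single values in gland were 0.95 for the dimmer Tapbp probe set and -0.67 for H2-Q10.

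In the WT tumor against the WT gland the class I median was 0.24, with 1 of 18 higher (H2-Q2) and 2 lower (H2-Q10 and H2-K1 by 1450534_x_at). At 2-fold, 12.8% of all probe sets were higher and 13.2% lower. In the KO tumor against the KO gland the class I median was 0.46, with 2 higher (Tap1 and H2-Q2) and 2 lower (the same 2 probe sets as in WT mice). There 11.5% of all probe sets were higher and 14.4% lower. H2-Q2 entered the count through its tumor signals and H2-Q10 through its gland signals, so the filter set their directions. The signs of the 2 class I medians depended on the dim probe sets, as without the floor they were -0.10 in WT mice and -0.22 in KO mice. Under quantile normalization they were 0.0074 in WT mice and 0.085 in KO mice, and under cyclic loess 0.0032 in WT mice and 0.049 in KO mice. After centring, 5 of 18 were higher in the KO tumor than in the KO gland. H2-Ke6, apart from both classes, had 517 in the KO tumor, 672 in the WT tumor, 573 in the KO gland and 753 in the WT gland, and was lower in KO by -0.36 and -0.38 on the log2 scale in tumor and gland.

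The 22 members below the floor were 16 of class I and 6 of class II. The class II ones belong to H2-Ea, Ciita and H2-DMb2. In class I they were 4 further H2-D1 and 3 further Tap1 probe sets and those of H2-Bl, H2-D4, H2-M10.1, H2-M9, H2-Q5, H2-T18, H2-T24 and, with 2 probe sets, H2-T3. Of the class I ones no signal exceeded 126.

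Other genes of antigen processing gave a graded picture. Of 20 measured and above the floor, none was past 2-fold between genotypes in gland or in tumor, with medians of 0.03 and 0.08. In the WT tumor against the WT gland 6 were higher and 2 lower, against 12.8% and 13.2% of all probe sets. Ifi30, a thiol reductase of endosomes, was 3.82-fold higher and Ctss, the cathepsin that trims Cd74, 3.06-fold higher, while Cd1d1, which presents lipids to NKT cells, was 9.77-fold lower and the Fc receptor Fcgrt 4.08-fold lower. In the KO tumor against the KO gland 5 were higher and 2 lower, against 11.5% and 14.4% of all probe sets. The immunoproteasome subunits Psmb9 and Psmb8 were 3.12-fold and 2.54-fold higher, and Cd1d1 and Fcgrt were 6.88-fold and 5.20-fold lower.

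Psmb9, whose gene adjoins Tap1, had signals of 3268 in the KO tumor, 2182 in the WT tumor, 1028 in the KO gland and 949 in the WT gland, the same order as Tap1. Of 12 measured regulators of MHC transcription above the floor, 1 was past 2-fold between genotypes, Irf8, a factor of B cells and myeloid cells. It had 464 in the KO tumor, 545 in the WT tumor, 856 in the KO gland and 384 in the WT gland. This was 2.15-fold higher in the KO gland, where 1.02% of all probe sets were higher by that rule. Irf1, a transcription factor of the interferon response that binds class I promoters, had 1294 in the KO tumor, 1067 in the WT tumor, 1112 in the KO gland and 1219 in the WT gland. The X box factor Rfx5 had 373 in the KO tumor, 349 in the WT tumor, 486 in the KO gland and 433 in the WT gland. Neither was past 2-fold in any of the 4 comparisons. In the WT tumor against the WT gland 1 of the 12 regulators was higher and 1 lower, against 12.8% and 13.2% of all probe sets. The higher one was Ifngr2, a chain of the interferon gamma receptor, at 4.62-fold. It had 522 in the KO tumor, 831 in the WT tumor, 329 in the KO gland and 159 in the WT gland, the last under the floor. The lower one was Nfya at 2.15-fold. In the KO tumor against the KO gland 0 were higher and 2 lower, against 11.5% and 14.4% of all probe sets. These 2 were Nfya at 2.15-fold and Ifngr1 at 2.12-fold. Of the costimulators and receptors of MHC molecules 1 of 20 was above the floor, Cd86, with 202 in the KO tumor, 265 in the WT tumor, 172 in the KO gland and 136 in the WT gland.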

How the data were processed

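RNA pooled from 5 mice per group was labelled with biotin and hybridised to 1 Affymetrix array per group, per the labels' protocols. The authors deposited 1 linear intensity for each probe set, and no label names the software behind it. The mean of every array without its lowest and highest 2% of values was 500, which shows scaling to 1 target. Values were used as deposited.

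Of 22690 probe sets, 20393 had 1 symbol in the platform annotation (updated by gene identifier for 20364), 691 had several and 1606 were not listed. Differences of log2(signal + 27.3) were taken between 2 arrays, without a test. The floor on the mean over arrays (log2 7.61) left 10442 probe sets, and a call is 2-fold. Probe set pairs of 1 gene served as a noise gauge. For the 11 other gene lists, a gene is its brightest probe set. The text names each member, and from the lists of immune cells, antigen processing and MHC regulators up to 4 genes past 2-fold per comparison. Csf1r, Irf1, Rfx5, Cd86, Esr1, Pgr and the salivary markers, and single further signals of named genes, were added after their values were seen. The members and lists were chosen with earlier results of these data known. The procedure was tested on simulated data. Alternatives were the offset, the scaling, the floor, genes as unit and leaving out shared probe sets. Promoter sequences come from RefSeq (GRCm38.p6). Python 3.11.15 and limma 3.58.1 were used.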

Additional observations from a re-analysis of the deposited data

Results flagged for a closer look

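The class II median of the genotype difference had opposite signs in tumor and gland, -0.43 in tumor and 0.39 in gland. The class I median was 0.17 in tumor and -0.037 in gland. The class I value in tumor was about the size of the noise between probe sets, 0.17 for that comparison. In gland it was within that noise, 0.22 there, and of unsettled sign. Single probe sets whose genotype difference had opposite signs and lay at least 2-fold apart were, in class II, H2-Oa at -0.19 in tumor and 1.11 in gland, H2-Aa by 1452431_s_at at -0.58 in tumor and 0.43 in gland, and H2-Ab1 by 1425477_x_at at -0.53 in tumor and 0.75 in gland. In class I they were H2-D1 by 1450170_x_at at 1.10 in tumor and -0.36 in gland, H2-Q10 at 0.75 in tumor and -0.67 in gland, and Tapbp by 1450378_at at -0.11 in tumor and 0.95 in gland. With 1 array per group, none of these differences between tissues was tested.

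Outside the members stand 14 probe sets annotated to several genes of which at least 1 is an H2 gene, and no gene is named from them. One of them, 1451644_a_at, annotated to 3 H2 genes, had signals of 2877 in the KO tumor, 1161 in the WT tumor, 596 in the KO gland and 301 in the WT gland. It was higher in the KO tumor than in the WT tumor by 1.29 on the log2 scale.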

How the results depend on the processing

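Of the 90 alternative class medians 81 stayed within the noise between probe sets and also kept their sign. Of 884 values of single probe sets 838 stayed within that noise, a turn of sign not being counted. The settings of floor, of genes as unit and without shared probe sets leave single values as they are. Only those of offset and scaling could move them, so the 838 include values that could not change. No value past 2-fold changed sign. The class II median stayed negative in the tumors under the 9 alternatives, from -0.47 to -0.32, positive in the glands, from 0.16 to 0.53, and positive for WT tumor against WT gland, from 0.68 to 1.36. The class I median in the tumors ran from 0.08 to 0.17. Counts below are probe sets past 2-fold, and their causes were not tested beyond what a setting itself leaves out. No paired analysis was possible because each group is 1 array, so no array could be left out either, and nothing here covers the spread between mice.

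With an offset of 1, the gland genotypes differed in 182 probe sets in all in place of 117, and class I had 1 higher in the KO gland and 2 in the KO tumor. With the median of all values as offset the totals were 42 for the gland and 142 (302 before) for the tumor genotypes. Class II then had 0 higher in the KO gland, and class I had 0 higher in the KO tumor against the WT tumor, 0 higher in the WT tumor against the WT gland, and 1 higher and 1 lower in the KO tumor against the KO gland, where class II had 2 lower.

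Centring on a common median gave 66 for the gland genotypes, 40 higher and 26 lower in place of 106 and 11, and 28 and 14 with the larger offset. It moved the median of all probe sets to -0.21 for the gland genotypes, 0.13 for WT tumor against WT gland and 0.33 for KO tumor against KO gland. For that last pair it gave 2078 higher and 1012 lower in place of 1203 and 1501. In the glands the class I median was then -0.26 and the class II median 0.16, with 0 class II higher. Class I had 3 higher in the WT tumor and 5 higher and 1 lower in the KO tumor against their glands, and class II had 3 higher in the KO tumor against the KO gland. Under quantile normalization the class I median in gland was 0.020, and class II had 0 higher and 2 lower in the KO tumor against the KO gland. Under cyclic loess that median was 0.091, class II had 0 higher in the KO gland against the WT gland, and again 0 higher and 2 lower in the KO tumor against the KO gland.

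Without a floor the totals were 443 for the gland and 623 for the tumor genotypes, 5052 for WT tumor against WT gland in place of 2707, and 5599 for KO tumor against KO gland in place of 2704. In the KO gland against the WT gland class I then had 1 higher and class II 2. Class I medians turned to -0.10 for the WT and -0.22 for the KO tumor against its gland, with 7 and 8 lower, as dim probe sets entered. Class II then had a median of 0.68 in the WT tumor against the WT gland and 3 lower in the KO tumor against the KO gland. With the floor on the highest value the totals were 258 and 476 for the gland and tumor genotypes, with 2 class II higher in the KO gland against the WT gland and 2 lower in the KO tumor against the KO gland.

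With genes as the unit 51 differed between the gland genotypes, 0 class I were higher in the KO tumor against the WT tumor, 1 class I was lower in each tumor against its gland, and 3 class II were higher in the WT tumor against the WT gland. Without shared probe sets 6583 were left, and B2m, Tap2 and Cd74, whose probe sets carry _a_at, were also dropped. The totals were 72 and 185 for the gland and tumor genotypes and 1744 and 1733 for the WT and KO tumor against its gland. The class I median was then 0.30 in gland and -0.021 for the difference in tumor minus that in gland. Class I had 0 higher in the KO tumor against the WT tumor and 0 lower in either tumor against its gland. Class II had 2 higher in the WT and 0 in the KO tumor against its gland.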

Other observations

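Of the other probe sets that are annotated to several H2 genes, 5 lay above the floor and were highest in the KO tumor, a grouping made after their values were seen. Probe set 1418536_at had 5770 in the KO tumor, 3028 in the WT tumor, 3106 in the KO gland and 2551 in the WT gland. Probe set 1431008_at had 4789 in the KO tumor, 2580 in the WT tumor, 2551 in the KO gland and 1880 in the WT gland. Probe set 1449875_s_at had 4824 in the KO tumor, 3350 in the WT tumor, 2505 in the KO gland and 2633 in the WT gland. Their KO minus WT differences in tumor were 0.92, 0.89 and 0.52 on the log2 scale, each within 2-fold. The other 2 probe sets, 1424948_x_at and 1449556_at, had smaller differences of 0.13 and 0.054.

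A further probe set of several H2 genes, 1449580_s_at, had 731 in the KO tumor, 1145 in the WT tumor, 884 in the KO gland and 396 in the WT gland. Its genotype difference was -0.63 in tumor and 1.11 in gland.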
